A study of Mus musculus with 12 samples.

Results

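The 36 genes described here carry a dividing cell through its cycle. Of them, 19 act in G1 and S phase and are called replication genes below, and 17 act in G2 and M phase and are called mitosis genes. They were listed by name for those roles, and each was read from 1 probe set, the brightest on average over the 12 arrays among those assigned to that gene alone. All 36 were measured, out of 17097 genes on the arrays, and all 36 lay above the median of their array on every array, by at least 1.61 on the log2 scale.

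RNA of embryonic mouse brain was hybridised to 12 arrays, in 2 experiments with 2 groups of 3 arrays each, all on a mixed genetic background. The first experiment compared forebrain and midbrain at E11.5 from YAP overexpression embryos (TetO-YAP1;Nes-rtTA) with the same tissue of YAP control embryos (Nes-rtTA), whose dams all ate doxycycline food (200 mg/kg) from E7.5. TetO-YAP1 is an inducible YAP1 with the substitution S127A, and Nes-rtTA, under a Nestin promoter, switches it on in neural progenitors. The substituted serine is one that the Hippo kinases phosphorylate to hold YAP back. The second experiment compared dorsal telencephalon at E13.5 from Nf2 knockout embryos (Nf2F/F;Emx1-Cre) with Nf2 control embryos (Nf2F/+;Emx1-Cre), which carried the same Cre and were heterozygous where it was active. Age, tissue and manipulation differ together between the experiments and cannot be told apart. The labels do not say that the arrays of a group came from separate embryos, so p-values cover the spread among these samples, and that spread may be technical only.

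YAP is a transcriptional co-activator of TEAD factors that the kinases of the Hippo pathway hold back, and Nf2 encodes Merlin, which acts upstream of those kinases. A cell prepares for S phase by loading the MCM helicase onto replication origins, copies its DNA, and then turns on a separate set of genes for building the spindle and separating chromosomes. E2F factors drive many replication genes, while many mitosis genes are repressed and later activated through CHR elements and CCAAT boxes in their promoters. In the embryonic brain both sets are active in the progenitors near the ventricle and are shut off in neurons.

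RefSeq promoter windows of 300 bases (250 before the start of transcription and 50 after it, build GRCm38.p6) were at hand for 28 of the 36 genes, 14 of each phase, and the 2 phases differed in the motifs they held. All motifs were read on both strands. The E2F-type motif TTTNNCGC was present in 9 of 14 replication genes, in 1 of 14 mitosis genes and in 5.93% of all 27025 genes with a window. The CHR motif TTTGAA was present in 1 of 14 replication genes, in 11 of 14 mitosis genes and in 20.2% of all genes. CCAAT was present in 9 of 14 and 12 of 14, against 41.1% of all genes, and the TEAD motif GGAATG in 2 of 14 and 2 of 14, against 16.6%. These matches describe the letters in the windows and are not measured binding sites, and a window without a match says nothing about the factor. The 250 bases before the start are shown for 4 genes whose values or motifs are described below, with E2F-type and CHR matches in capitals.
Mcm6 (chr1:128359706-128359955, minus strand): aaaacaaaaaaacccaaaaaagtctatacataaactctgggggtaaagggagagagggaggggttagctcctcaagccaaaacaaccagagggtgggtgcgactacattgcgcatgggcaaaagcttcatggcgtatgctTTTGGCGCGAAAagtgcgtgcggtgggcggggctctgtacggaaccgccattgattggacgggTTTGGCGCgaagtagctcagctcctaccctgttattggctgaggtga
Uhrf1 (chr17:56303087-56303336, plus strand): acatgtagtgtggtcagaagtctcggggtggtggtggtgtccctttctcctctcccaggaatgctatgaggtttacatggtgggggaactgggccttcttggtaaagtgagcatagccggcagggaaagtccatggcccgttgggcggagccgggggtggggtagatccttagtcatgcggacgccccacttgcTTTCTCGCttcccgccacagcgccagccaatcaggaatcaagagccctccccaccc
Mki67 (chr7:135716380-135716629, minus strand): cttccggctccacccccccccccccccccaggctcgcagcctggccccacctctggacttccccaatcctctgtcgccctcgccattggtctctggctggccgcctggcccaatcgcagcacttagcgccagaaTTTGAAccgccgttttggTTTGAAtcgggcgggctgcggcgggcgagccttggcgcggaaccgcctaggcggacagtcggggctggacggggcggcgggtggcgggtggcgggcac
Cdk1 (chr10:69352913-69353162, minus strand): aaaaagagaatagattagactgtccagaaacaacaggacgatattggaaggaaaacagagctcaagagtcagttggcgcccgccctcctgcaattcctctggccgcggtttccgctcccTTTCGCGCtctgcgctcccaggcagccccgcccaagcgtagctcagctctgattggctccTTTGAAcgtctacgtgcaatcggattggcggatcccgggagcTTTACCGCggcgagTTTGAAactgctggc
The Mcm6 stretch held 3 E2F-type matches, the first 2 of which overlap, and the stretch of Uhrf1 held 1. The Mki67 stretch held 2 CHR matches. Cdk1 was the mitosis gene with an E2F-type match, and its stretch held 2 of each motif.

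The deposited values were log2 intensities, and the lowest correlation between arrays of one group was 0.994 across genes. The median of an array was 5.03 to 5.1 at E11.5 and 4.3 to 4.42 at E13.5, so levels are not compared between experiments. A gene is called at an adjusted p under 0.05 in limma over all 17097 genes. Neither manipulated gene was called, Yap1 with a log2 difference of 0.27 (adjusted p = 0.0551) and Nf2 with -0.38 (adjusted p = 0.246), and where their probe sets lie relative to the deleted or introduced sequence was not determined. The YAP reporters Ccn1 and Ccn2 were higher in both experiments and were called. Otx2, a forebrain and midbrain gene, lay between 11.32 and 11.59 at E11.5, and the cortical gene Emx1 between 7.11 and 7.46 at E13.5. The midbrain gene En1 lay between 3.81 and 4.40 at E11.5, below the array medians.

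With YAP overexpression none of the 36 genes differed from control past the threshold (limma), against 6.31% of all genes. Of the members, 18 lay above control and 18 below, against 48.0% and 51.2% of all genes. Their median log2 difference was 0.00 (all genes -0.01), and the extremes were 0.24 (Cdc6) and -0.23 (Nusap1). Before adjustment, 2 members passed p under 0.05 as higher (Cdt1 and Mcm6) and 1 as lower (Mki67), against 8.65% and 11.0% of all genes. Control and overexpression values were fully apart in 4 members, 3 higher (Ccnd2, Cdt1 and Mcm6) and 1 lower (Mki67), against 21.3% of all genes, so such members were not more frequent than the background.

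Loss of Nf2 went with small positive differences in most members, and again none was called, against 0.252% of all genes, or 0.123% with replicate number as a block. Of the members, 31 lay above control and 5 below (48.3% and 50.6% of all genes), with a median log2 difference of 0.08 (all genes 0.00). The differences ran from -0.23 (Ccnd1) to 0.26 (Uhrf1). Before adjustment, 3 members passed p under 0.05 as higher (Uhrf1, Cdt1 and Mcm7) and none as lower, against 3.15% and 3.09% of all genes. With the block, 4 did so as higher (Uhrf1, Mcm3, Mcm4 and Cdt1), against 3.21%. Control and knockout values were fully apart in 11 members, all higher (Cdt1, Mcm2, Mcm4, Mcm5, Mcm7, Rrm2, Uhrf1, Ccnb2, Cdk1, Cenpf and Tpx2), against 6.60% of all genes that were higher.

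The intervals, each for a single gene, rest on the spread among these samples, which may be technical only. For 35 of 36 members with YAP and 34 of 36 with Nf2, the 95% interval of the log2 difference lay within 0.5 of 0, a 1.41-fold change. The lowest and highest limits were -0.48 (Nusap1) and 0.59 (Cdc6) with YAP, and -0.59 (Ccnd1) and 0.53 (Cdc6) with Nf2. In bulk tissue, fewer cells of a type and less RNA per cell cannot be told apart.

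**Figure D1:**
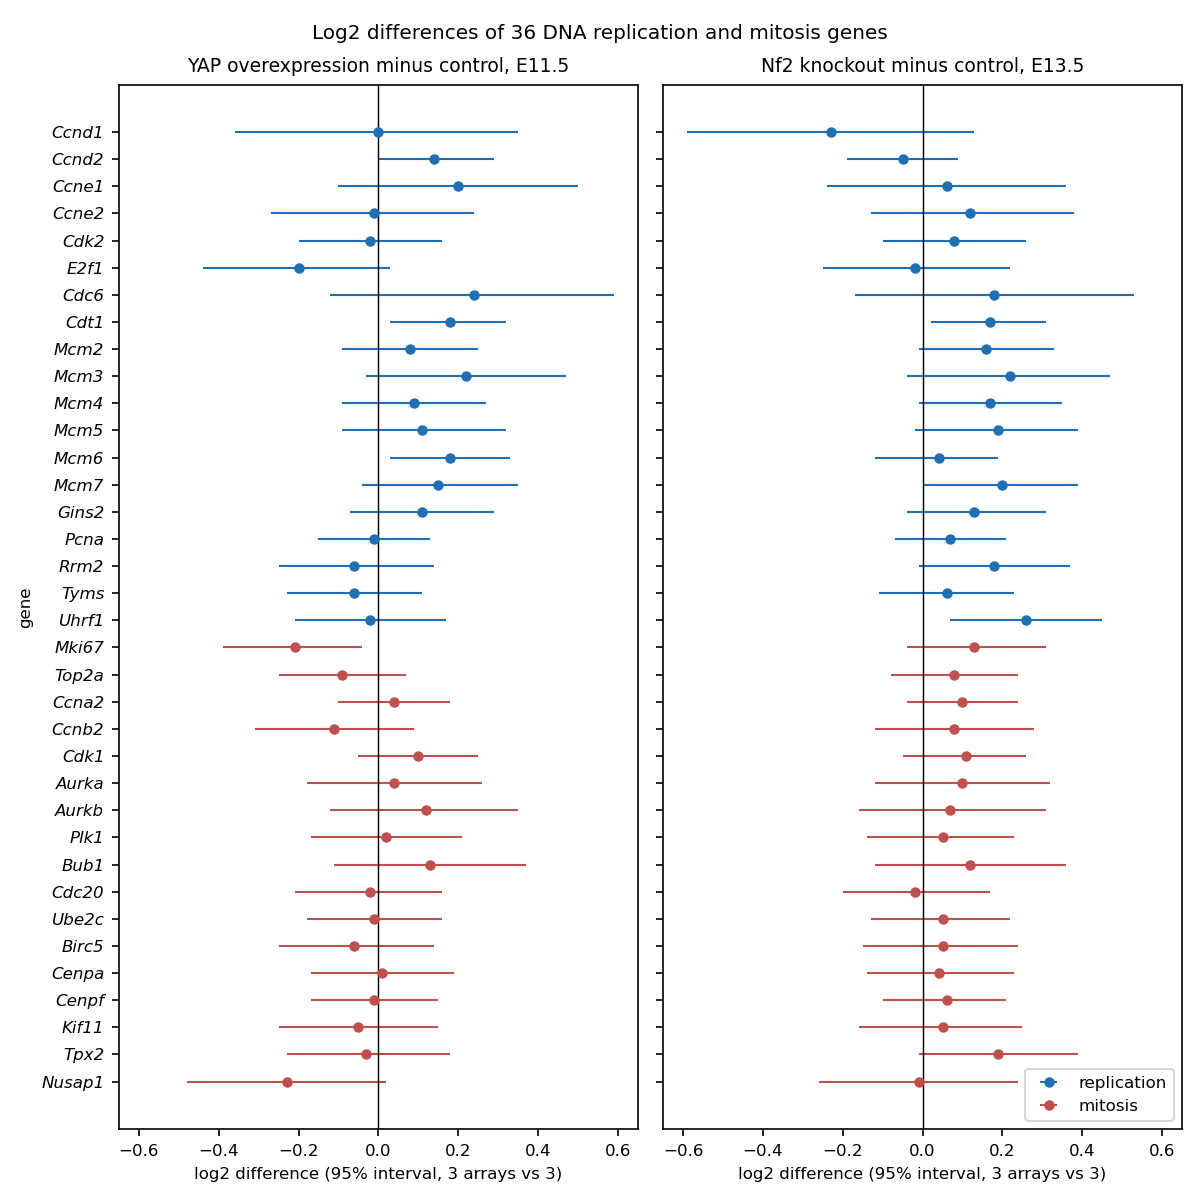
Log2 difference from control of each of the 36 genes with YAP overexpression at E11.5 (left) and Nf2 knockout at E13.5 (right); points are the limma estimates from 3 arrays against 3, lines are 95% intervals, blue is replication and red is mitosis. With YAP 18 points lie above 0 and 18 below, with Nf2 31 above and 5 below, and none was called.

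The D-type cyclins activate the G1 kinases. Ccnd1, the cyclin D1 gene, read 12.42, 12.23 and 12.52 in YAP controls and 12.40, 12.49 and 12.27 with overexpression, so the groups overlapped and the log2 difference was 0.00 (SE 0.16, adjusted p = 0.993). At E13.5 it read 9.14, 9.22 and 8.87 in Nf2 controls and 9.25, 8.81 and 8.48 in knockouts. Knockout 1 lay above all controls and knockouts 2 and 3 below all of them, which gave -0.23 (SE 0.16, adjusted p = 0.922). Without knockout replicate 1 the difference was -0.43, and without knockout replicate 3 it was -0.05. Ccnd2, the cyclin D2 gene, read 13.22, 13.12 and 13.19 in YAP controls and 13.32, 13.40 and 13.24 with overexpression. Those groups did not overlap, with a difference of 0.14 (SE 0.07, adjusted p = 0.259). With Nf2, Ccnd2 differed by -0.05 (SE 0.07, adjusted p = 0.978).

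Cyclin E and Cdk2 push the cell into S phase, and E2f1 is a transcription factor for the replication genes. Ccne1 read 8.00, 8.22 and 8.02 in YAP controls and 8.38, 7.91 and 8.55 with overexpression. Overexpression 2 lay below every control while the other two lay above, and the difference of 0.20 (SE 0.14) was not called (adjusted p = 0.482). Without overexpression replicate 2 it was 0.39 and passed the threshold (adjusted p = 0.0421), the only such case among the members with any array left out. Without overexpression replicate 3 it was 0.07. E2f1 read 7.01, 7.15 and 7.27 in YAP controls and 6.68, 7.03 and 7.11 with overexpression, a difference of -0.20 (SE 0.11, adjusted p = 0.329) with overlapping groups. Ccne2 and Cdk2 differed by -0.01 and -0.02. With Nf2 these 4 genes differed by between -0.02 (E2f1) and 0.12 (Ccne2).

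The genes that license origins and form the replicative helicase had one sign of difference in both experiments. Cdc6 and Cdt1 load the helicase, Mcm2 to Mcm7 are its subunits, and Gins2 belongs to the complex that activates it. All 9 lay above control with YAP overexpression, with a median of 0.15, and all 9 lay above control in Nf2 knockouts, with a median of 0.17. With overexpression replicate 3 left out, the YAP count was 8 of 9 and the median 0.07. With knockout replicate 1 left out, the Nf2 count was 8 of 9 and the median 0.14. Means of the 6 MCM genes were 11.25, 11.27 and 11.27 on YAP control arrays and 11.41, 11.27 and 11.52 on overexpression arrays, so overexpression 2 lay at the control level. They were 9.94, 9.81 and 9.86 on Nf2 control arrays and 10.11, 9.96 and 10.03 on knockout arrays, without overlap.

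Cdc6 had the largest positive difference of all members with YAP. It read 9.09, 9.09 and 9.05 in controls and 9.36, 8.92 and 9.66 with overexpression. Overexpression 2 lay below the controls and the other arrays of its group above them, and the difference was 0.24 (SE 0.16, adjusted p = 0.48). It was 0.43 without overexpression replicate 2 and 0.06 without overexpression replicate 3. With Nf2, Cdc6 differed by 0.18 (SE 0.16, adjusted p = 0.954), with 0.18, 0.19 and 0.17 in the 3 same-numbered pairs. Cdt1 read 11.39, 11.36 and 11.33 in YAP controls and 11.60, 11.48 and 11.53 with overexpression. It read 10.00, 9.84 and 9.92 in Nf2 controls and 10.13, 10.07 and 10.06 in knockouts. The groups of Cdt1 overlapped in neither experiment, with differences of 0.18 (SE 0.07, adjusted p = 0.159) and 0.17 (SE 0.07, adjusted p = 0.733).

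Mcm3 read 9.79, 9.87 and 10.10 in YAP controls and 10.18, 9.97 and 10.27 with overexpression, and 8.72, 8.40 and 8.50 in Nf2 controls against 8.91, 8.66 and 8.70 in knockouts. Both pairs of groups overlapped, and the difference was 0.22 (SE 0.12) in each (adjusted p = 0.334 with YAP and 0.876 with Nf2). Mcm6, whose promoter stretch is shown above, read 12.06, 12.08 and 12.05 in YAP controls and 12.23, 12.17 and 12.33 with overexpression, without overlap. Its difference was 0.18 (SE 0.07, adjusted p = 0.175) with YAP and 0.04 (SE 0.07, adjusted p = 0.987) with Nf2. Mcm7 differed by 0.15 and 0.20, Mcm5 by 0.11 and 0.19, Mcm4 by 0.09 and 0.17, Mcm2 by 0.08 and 0.16 and Gins2 by 0.11 and 0.13, with YAP and Nf2 respectively. Their adjusted p ran from 0.391 to 0.651 with YAP and from 0.789 to 0.902 with Nf2.

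The other replication genes on the list supply nucleotides and accompany the fork. Uhrf1, which helps to carry DNA methylation over to the new strand, had the largest difference of any member with Nf2. It read 10.06, 9.89 and 9.93 in Nf2 controls and 10.39, 10.14 and 10.12 in knockouts, so every knockout lay above every control. The difference was 0.26 (SE 0.09), 1.19-fold, and was not called (adjusted p = 0.592, and 0.541 with the block). With YAP, Uhrf1 differed by -0.02 (SE 0.09, adjusted p = 0.931). Rrm2, a subunit of ribonucleotide reductase, read 10.56, 10.55 and 10.46 in Nf2 controls and 10.88, 10.62 and 10.61 in knockouts, a difference of 0.18 (SE 0.09, adjusted p = 0.842). Pcna, the sliding clamp, and Tyms, thymidylate synthase, differed by 0.07 and 0.06 with Nf2. All 4 had small negative differences with YAP, from -0.06 to -0.01. Probe sets of Rrm2, Tyms and Uhrf1 had mixed signs there, with the second ones of Rrm2 and Uhrf1 at 0.07 and 0.12. With array median centring Pcna and Uhrf1 were positive.

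Mki67, which encodes the proliferation marker Ki-67, was the only mitosis gene whose YAP groups did not overlap, against 21.3% of all genes. It read 12.31, 12.21 and 12.14 in controls and 11.97, 11.98 and 12.07 with overexpression, means of 12.22 ± 0.09 (SD, n = 3) and 12.01 ± 0.06 (SD, n = 3). All overexpression arrays lay below all controls, and the difference of -0.21 (SE 0.08), or 0.863 of the control level, was not called (adjusted p = 0.156). In the Nf2 experiment Mki67 read 10.99, 10.88 and 10.72 in controls and 11.04, 10.96 and 10.99 in knockouts. These groups overlapped, with a difference of 0.13 (SE 0.08, adjusted p = 0.9). Top2a, the topoisomerase that untangles replicated chromosomes, differed by -0.09 with YAP and 0.08 with Nf2.

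The mitotic cyclins and kinases start and time mitosis. Bub1, a kinase of the spindle checkpoint, read 10.85, 10.85 and 10.79 in YAP controls and 11.00, 10.75 and 11.14 with overexpression, a difference of 0.13 (SE 0.11, adjusted p = 0.581) with overexpression 2 below all controls. It read 9.62, 9.43 and 9.53 in Nf2 controls and 9.86, 9.53 and 9.56 in knockouts, a difference of 0.12 (SE 0.11, adjusted p = 0.954). Cdk1, the kinase that drives entry into mitosis, differed by 0.10 (SE 0.07, adjusted p = 0.489) with YAP and 0.11 (SE 0.07, adjusted p = 0.922) with Nf2. Its Nf2 arrays read 11.20, 11.18 and 11.15 against 11.34, 11.30 and 11.21, without overlap. Ccnb2, a cyclin B gene, differed by -0.11 with YAP, and the kinases Aurka, Aurkb and Plk1 and the cyclin gene Ccna2 by 0.02 to 0.12. With Nf2 all 7 genes of this set lay above control, by 0.05 to 0.12.

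Cdc20 and Ube2c work with the ubiquitin ligase that starts anaphase, Birc5 (survivin), Cenpa and Cenpf sit at centromeres and kinetochores, and Kif11, Tpx2 and Nusap1 act on spindle microtubules. Nusap1 had the lowest difference of all members with YAP. It read 11.51, 11.42 and 11.23 in controls and 11.09, 11.13 and 11.25 with overexpression, with 1 overexpression array just above the lowest control. The difference was -0.23 (SE 0.11, adjusted p = 0.302), against -0.01 with Nf2. Tpx2, which activates Aurora A and nucleates microtubules, read 9.56, 9.32 and 9.39 in Nf2 controls and 9.57, 9.60 and 9.67 in knockouts, a difference of 0.19 (SE 0.09, adjusted p = 0.838). The lowest knockout lay just above the highest control. With YAP, Tpx2 differed by -0.03. Its second probe set, with a mean of 9.26 over all arrays, differed by 0.00 with Nf2 and -0.02 with YAP. The other 6 genes of these sets differed by between -0.06 and 0.01 with YAP and between -0.02 and 0.06 with Nf2.

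Members also shared shifts from array to array within groups. On Nf2 control 1, 34 of 36 members lay above the mean of the 3 controls and none below it, and on Nf2 knockout 1, which bears the same number, 34 lay above that mean. On knockouts 2 and 3, 25 and 28 did. The mean of the 19 replication genes was 9.50, 9.39 and 9.43 on Nf2 control arrays and 9.63, 9.47 and 9.53 on knockout arrays. The mean of the 17 mitosis genes was 10.06, 9.98 and 9.94 against 10.14, 10.05 and 10.02. In both phases the 2 groups overlapped through control 1.

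In the YAP experiment the overexpression arrays were spread more widely than the controls. The mean of the mitosis genes was 11.31, 11.30 and 11.24 on control arrays and 11.27, 11.15 and 11.38 on overexpression arrays. On overexpression 2, 1 of 17 mitosis genes lay above the control mean, and on overexpression 3, 14 of 17 did. The mean of the replication genes was 10.74, 10.73 and 10.72 against 10.80, 10.72 and 10.88. The median difference was 0.09 over replication genes (11 of 19 positive) and -0.01 over mitosis genes (7 of 17 positive). Signs near 0 depended on the scaling. With each array's median subtracted, which moved the median of all genes by 0.04, 16 of 19 and 11 of 17 were positive, with medians of 0.13 and 0.03. With 1 array left out at a time, the median over mitosis genes ran from -0.07 to 0.06, above 0 without overexpression replicate 2 (0.06) or control replicate 2 (0.02), 0.00 without control replicate 1 and lowest without overexpression replicate 3.

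**Figure D2:**
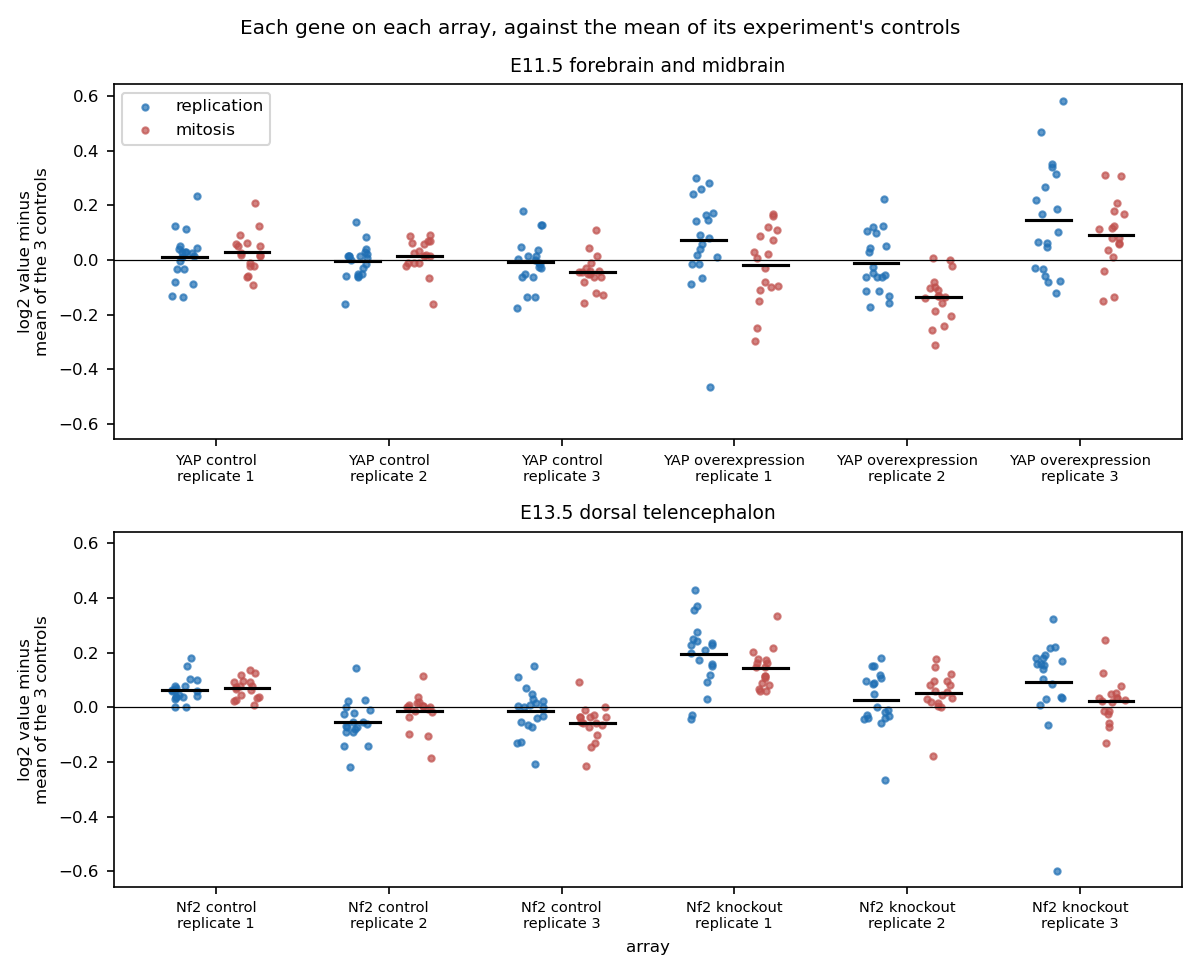
Each point is 1 gene on 1 array, as its log2 value minus the mean of the 3 control arrays of the same experiment, for the YAP experiment (top) and the Nf2 experiment (bottom); blue is replication, red is mitosis, and bars are means over genes. Overexpression 2 has 1 of 17 mitosis genes above 0 and overexpression 3 has 14, and Nf2 control 1 has 34 of 36 members above 0.

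Taken pair by pair, knockout minus control of the same number, the Nf2 members leaned the same way in each pair. The labels do not say that a number marks a pair. Members above their control numbered 29, 30 and 29 in pairs 1 to 3, with median log2 differences of 0.11, 0.08 and 0.11. All 3 pairs were positive in 22 of 36 members, 11 of each phase, and all 3 negative in none, against 15.8% and 15.8% of all genes. Of the licensing and helicase genes, 9 of 9 were positive in every pair. Mcm2 differed by 0.16, 0.16 and 0.15, Uhrf1 by 0.33, 0.25 and 0.19, and Aurka by 0.09, 0.10 and 0.11. Ccnd1 went apart, with 0.11 in pair 1 and -0.41 and -0.39 in pairs 2 and 3.

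**Figure D3:**
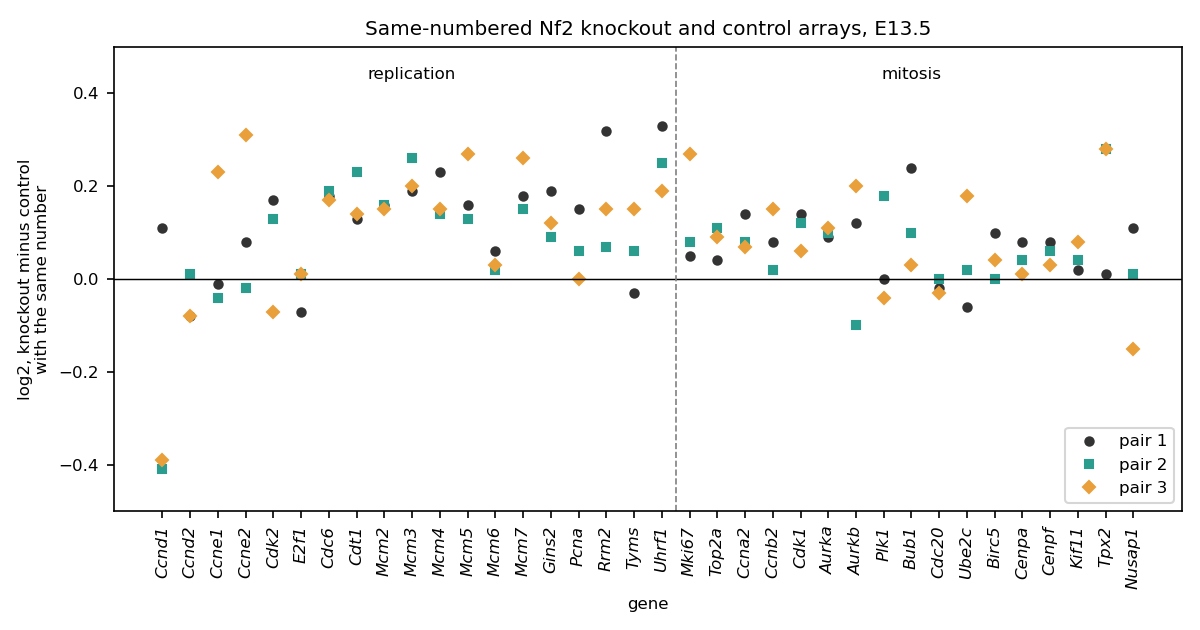
Log2 knockout minus control within each same-numbered Nf2 pair for the 36 genes, replication left of the dashed line and mitosis right of it. In 22 genes all 3 points lie above 0 and in none do all 3 lie below.

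Whether the 2 manipulations differed in their effect on a member was tested in the same limma fit. No member was called, against 0.281% of all genes. Before adjustment, 2 members passed p under 0.05, both with the YAP effect lower than the Nf2 effect, against 5.66% of all genes. These were Mki67, with a difference of effects of -0.35 (SE 0.11, adjusted p = 0.305), and Uhrf1, with -0.28 (SE 0.12, adjusted p = 0.478). For the 9 licensing and helicase genes this difference lay between -0.08 and 0.14, with adjusted p from 0.692 to 0.995.

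Other genes of the same processes were read from lists of their own. Of 40 further replication genes, 38 were measured and none was called in either experiment. Of all genes, 6.31% were called with YAP and 0.252% with Nf2. With YAP, 23 were positive and 14 negative (median 0.03), and Dbf4, the activator of the Cdc7 kinase that fires origins, had the smallest p (0.23, SE 0.09, adjusted p = 0.163). With 1 YAP array left out the count of positive genes ran from 13 (without overexpression replicate 3) to 31 (without control replicate 2), and the median from -0.03 to 0.07. With Nf2, 38 of 38 were positive (median 0.14), 28 of them in all 3 pairs, against 15.8% of all genes. There, Pole2, a subunit of DNA polymerase epsilon, had the smallest p. It read 7.97, 7.92 and 8.07 in Nf2 controls and 8.32, 8.16 and 8.33 in knockouts, without overlap, a difference of 0.28 (SE 0.10, adjusted p = 0.621). With 1 Nf2 array left out, the count of positive genes ran from 31 (without knockout replicate 1) to 38.

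Of 44 further mitosis genes, 41 were measured and none was called, against 6.31% of all genes with YAP and 0.252% with Nf2. With YAP, 17 were positive and 23 negative (median -0.02). With 1 YAP array left out, the count of positive genes ran from 13 (without overexpression replicate 3) to 26 (without overexpression replicate 2), and the median from -0.05 to 0.04. Leaving out control replicate 2, or overexpression replicate 3, gave 1 call of a lower gene each, against 888 and 678 calls over all genes. Leaving out dim genes gave 1 higher and 3 lower calls, against 1404 calls among all genes kept. Before adjustment 1 passed p under 0.05 as higher (Pttg1) and 5 as lower (Foxm1, Spc25, Cenpk, Racgap1 and Aspm), against 8.65% and 11.0% of all genes, so the lower count was near the background. Racgap1, which acts in cytokinesis, came closest, reading 9.84, 9.77 and 9.74 in controls and 9.39, 9.45 and 9.64 with overexpression. Its difference was -0.29 (SE 0.08, adjusted p = 0.0516), with every overexpression array below every control. With Nf2, 39 were positive and 2 negative (median 0.09), and Melk, a kinase of proliferating cells, had the smallest p (0.21, SE 0.08, adjusted p = 0.667). With 1 Nf2 array left out, the count of positive genes ran from 31 to 41.

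Regulators of the G1 phase were read from a list that holds no member. Of 17 G1 kinases, E2F factors and pocket proteins, 16 were measured, and with YAP 2 rose and none fell, against 6.31% of all genes called in either direction. Without overexpression replicate 2, 1 gene of the list was also called lower, against 1241 calls over all genes. Ccnd3, the cyclin D3 gene, read 9.68, 9.66 and 9.60 in controls and 10.59, 10.51 and 10.62 with overexpression, means of 9.65 ± 0.04 (SD, n = 3) and 10.57 ± 0.06 (SD, n = 3). It rose 1.9-fold (log2 0.93, SE 0.07, adjusted p = 1.92e-05). Its second probe set, with a mean of 3.70 over all arrays, differed by 0.07, and the mean of both by 0.50 (adjusted p = 0.000421). Cdk6, which encodes a G1 kinase partner of the D cyclins, read 8.49, 8.24 and 8.22 in controls and 9.17, 9.41 and 8.99 with overexpression. It rose 1.83-fold (log2 0.87, SE 0.12, adjusted p = 0.00116), and its other 2 probe sets differed by 1.11 and 0.35. Both genes stayed called under every alternative tried.

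In the Nf2 experiment none of the 16 was called, against 0.252% of all genes. At an unadjusted p under 0.05 in limma 3 were higher, against 3.15% of all genes. Ccnd3 read 7.92, 8.08 and 8.03 in controls and 8.33, 8.27 and 8.20 in knockouts, and Cdk6 read 8.27, 8.30 and 8.07 against 8.85, 8.67 and 8.89. Neither gene's groups overlapped, and 6.60% of all genes were higher without overlap. The differences were 0.26 (SE 0.07, adjusted p = 0.353) for Ccnd3 and 0.59 (SE 0.12, adjusted p = 0.094) for Cdk6, and with array weights Cdk6 passed the threshold (adjusted p = 0.0458). As the mean of both probe sets, Ccnd3 differed by 0.08. The YAP effect exceeded the Nf2 effect for Ccnd3 by 0.67 (SE 0.10, adjusted p = 0.0155). For Cdk6 the difference of effects was 0.28 (SE 0.17, adjusted p = 0.618).

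Of the 7 inhibitors of cyclin-dependent kinases, all were measured, and with YAP 1 fell and none rose, again against 6.31% of all genes called. With array median centring, with dim genes left out, or without overexpression replicate 3, 1 gene of the list was also called higher. Over all genes in the fit, those settings gave 1017, 1404 and 678 calls. Cdkn2c, which encodes the p18 inhibitor of Cdk4 and Cdk6, read 7.55, 7.57 and 7.79 in controls and 6.94, 6.89 and 7.07 with overexpression. It fell by 0.67 (SE 0.08, adjusted p = 0.00054) and stayed called under every alternative tried. Cdkn1a, the p21 gene, read 6.65, 6.86 and 7.07 in controls and 7.48, 8.33 and 7.10 with overexpression, a difference of 0.78 (SE 0.24) that was not called (adjusted p = 0.0798) and was widest on overexpression 2. With Nf2 none of the 7 was called or passed an unadjusted p under 0.05. Cdkn2c differed there by -0.07 (SE 0.08, adjusted p = 0.971), and the difference between its effects of -0.60 was not called (adjusted p = 0.0613).

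**Figure D4:**
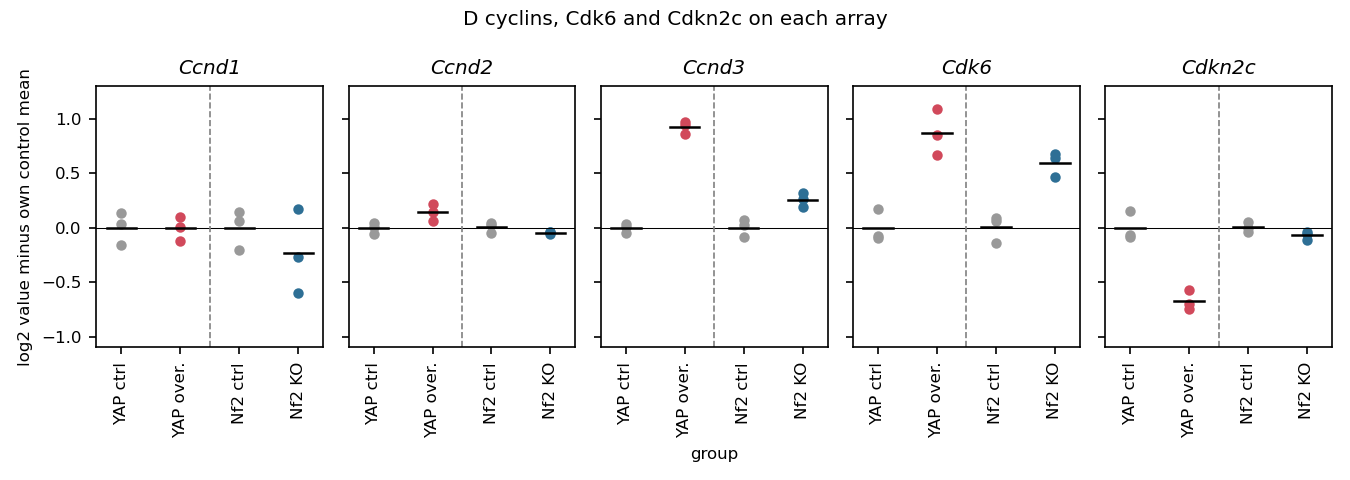
Log2 value minus the mean of the 3 controls of the same experiment for 5 G1 genes, 1 point per array and a bar at each group mean; the dashed line separates the YAP and Nf2 experiments. In the YAP experiment Ccnd1 straddles 0, while Ccnd3 and Cdk6 lie above and Cdkn2c below their controls on all overexpression arrays.

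Markers of other cell types were read on the same arrays. With YAP, 8 of 9 intermediate progenitor genes and 10 of 14 neuron genes were called lower, against 6.31% of all genes in either direction. No gene of either list was called higher, and by sign 9 of 9 and 14 of 14 were negative. Of 12 genes of radial glia and apical progenitors, 2 were called higher and 3 lower. The mean of the neuron genes lay 0.69, 0.37 and 0.88 below control on overexpression arrays 1 to 3. The array with the smallest shift, overexpression 2, was also the one with the lowest mitosis genes. The radial glia and apical progenitor mean stood at -0.22, 0.02 and -0.21 against control on these arrays, highest on overexpression 2. The mean of the erythroid genes stood at -0.17, -0.32 and 0.14, lowest on overexpression 2. In the Nf2 experiment 9 of 12 genes of radial glia and apical progenitors were positive and 3 negative (median 0.08), and none was called. At an unadjusted p under 0.05 in limma 4 of them were higher, against 3.15% of all genes. Of the intermediate progenitor genes 5 were positive and 4 negative there (median 0.01), and none was called. In the same experiment 14 of 14 neuron genes were negative and none was called (median -0.14, and 1 lower at an unadjusted p under 0.05 in limma). Their mean stood at -0.10, 0.06 and 0.04 on controls and -0.24, -0.11 and -0.12 on knockouts against the control mean, so control 1 and knockout 1, the arrays with the highest replication and mitosis genes in their groups, were the lowest in neuron genes. Also in the Nf2 experiment, 8 of 8 microglia and macrophage genes were positive (median 0.31), 8 of 8 endothelial genes were negative (median -0.28), 6 of 8 erythroid genes were negative (median -0.23) and 7 of 9 genes of mesenchyme and pericytes were negative (median -0.14), none of them called. Before adjustment 3 microglia genes passed as higher, against 3.15% of all genes. As lower, 3 endothelial, 4 erythroid and 1 mesenchyme gene passed, against 3.09% of all genes. With YAP, 8 of 9 genes of mesenchyme and pericytes were negative (median -0.25, and 3 lower at an unadjusted p under 0.05 in limma), as were 6 of 8 erythroid genes (median -0.12, 2 lower) and 5 of 8 microglia and macrophage genes (median -0.10), while 5 of 8 endothelial genes were positive (median 0.07), none of them called. Over all genes, 11.0% passed as lower with YAP before adjustment. The part of these cell types in the values of the 36 genes was not tested.

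**Figure D5:**
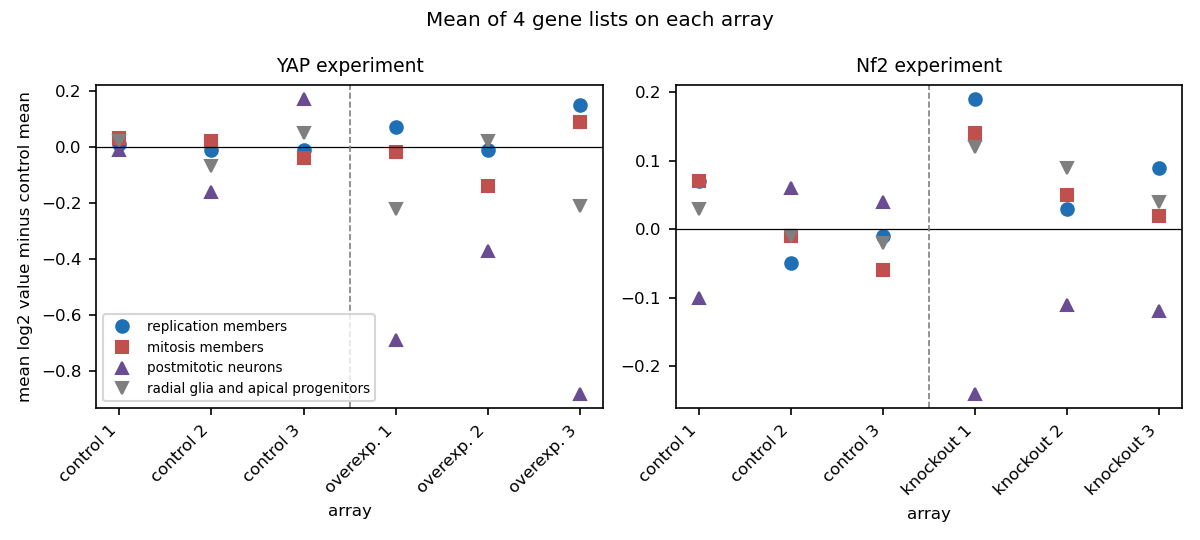
Mean over genes of the log2 value minus the control mean on each array, for the 19 replication genes, the 17 mitosis genes, 14 neuron genes and 12 genes of radial glia and apical progenitors, with a vertical scale of its own in each panel. The neuron mean is lowest on overexpression 3 (-0.88) in the left panel and on knockout 1 (-0.24) in the right panel.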

How the data were processed

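RNA was extracted with Trizol and 100 ng of total RNA per sample was labelled as cRNA with a 3' IVT kit for Affymetrix arrays, per the labels' protocols. The deposited table holds the authors' log2 values per probe set, 12 arrays in 4 groups of 3. RMA, Affymetrix Expression Console 1.1 and Partek 6.5 are named in the submitters' processing notes, with no role given. Of 45037 probe sets, 28898 have a single gene symbol in the platform annotation, and the one with the highest mean over the 12 arrays was kept for each of 17097 genes.

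With limma 3.58.1 (R 4.3.3), 1 mean per group was fitted over the 12 arrays (8 residual and 4.096 prior degrees of freedom), without a further filter, and p-values were adjusted by Benjamini-Hochberg over all 17097 genes. Values are given in full for called members and for the 3 largest differences per phase and comparison. Of each pathway list, called genes or otherwise the gene with the smallest p are given. Other genes named were chosen after their values were seen. The members and lists were chosen with earlier results of these data known. Promoter sequences are from RefSeq (GRCm38.p6).

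Replicate numbers were checked for pairing by correlating deviations from group means. Same-numbered Nf2 arrays gave r of 0.271, 0.212 and 0.207, so those numbers were treated as pairs. Same-numbered YAP arrays gave 0.0971, -0.195 and -0.204 and were not. Differently numbered Nf2 arrays gave r from -0.228 to -0.000108. However, YAP control 2 and overexpression 3, with different numbers, gave 0.304, so r of this size does not establish a pair. The labels do not say that a number marks a pair. With 3 arrays against 3, a two-sided exact permutation test of a single value cannot go below p = 0.1. The number of arrays limits the precision. On simulated data with 200 changed genes of 17097 (10 simulations), the fit recovered 55.7% of changes of 0.5 and 93.8% of changes of 1 (log2) in the YAP comparison, and 56.1% and 94.6% in the Nf2 comparison. Alternatives changed the scaling, the probe set, the filter on dim genes, the arrays in the fit, array weights and the replicate block. The block was fitted in both experiments at once, with 4 residual degrees of freedom. It thus also covered the YAP arrays, whose numbers did not pair the samples.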

Additional observations from a re-analysis of the deposited data

How the results depend on the processing

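No member was called in either comparison under any alternative tried, except Ccne1 without YAP overexpression replicate 2, so with 1 array left out the number of members called with YAP ran from 0 to 1. Over all genes, the number called with YAP was 1078, 689 with the replicate block (whose numbers did not pair the samples there), 361 with the 6 arrays of the experiment alone, and 529 to 1241 with 1 array left out. With Nf2 it was 43, 21 with the replicate block (19 of the 43 were kept), 25 with the 6 arrays alone, 67 with array weights, and 20 to 32 with 1 array left out. The block changed no call among the members. The share of called genes that were higher with YAP was 42.3%, 53.9% with array median centring and 47.6% with quantile normalization, and with Nf2 it was 81.4%, 84.8% and 85.4%. Centring moved the median of all genes by 0.04 (YAP) and 0.02 (Nf2). Single members changed sign in 66 of 1006 values under the alternatives, and the cause was not tested. With array median centring the YAP differences became Ccnd1 0.04, Ccne2 0.03, Cdk2 0.02, Pcna 0.03, Uhrf1 0.02, Cdc20 0.02, Ube2c 0.03, Cenpf 0.03 and Tpx2 0.01, and the Nf2 differences E2f1 0.00, Cdc20 0.00 and Nusap1 0.01. With quantile normalization the YAP differences became Ccnd1 0.00, Ccne2 0.01 and Ube2c 0.01. With the mean of probe sets they became Ccnd1 0.01, Rrm2 0.01, Uhrf1 0.05, Cenpa -0.01 and Cenpf 0.01, and with array weights Ccnd1 0.01 and Cenpa -0.02. With 1 array left out, signs changed with YAP within these ranges: Ccnd1 -0.08 to 0.06, Ccne2 -0.10 to 0.10, Cdk2 -0.05 to 0.00, Mcm5 0.00 to 0.20, Pcna -0.03 to 0.02, Rrm2 -0.12 to 0.01, Uhrf1 -0.06 to 0.03, Aurka -0.10 to 0.11, Plk1 -0.03 to 0.10, Cdc20 -0.07 to 0.04, Ube2c -0.07 to 0.04, Birc5 -0.14 to 0.01, Cenpa -0.07 to 0.07, Cenpf -0.06 to 0.06, Kif11 -0.13 to 0.06 and Tpx2 -0.10 to 0.06. With Nf2 they did so for Ccne1 0.00 to 0.11, E2f1 -0.05 to 0.01, Mcm6 -0.01 to 0.07, Tyms 0.00 to 0.10, Aurkb -0.03 to 0.13, Plk1 0.00 to 0.11, Cdc20 -0.07 to 0.04, Ube2c -0.02 to 0.11, Birc5 0.00 to 0.08 and Nusap1 -0.12 to 0.07.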

Other observations

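Of the 36 members, 21 had several probe sets, whose signs were mixed in 7 genes with YAP and in 5 with Nf2. The 6 probe sets of Ccnd2 differed by 0.14 to 0.43 with YAP, all positive, and by -0.12 to 0.07 with Nf2. The 3 probe sets of Ccnd1 differed by -0.38 to -0.23 with Nf2, all negative. The second probe set of Nusap1, with a mean of 5.26 over all arrays, differed by -0.82 with YAP and -0.27 with Nf2.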
